A study of Homo sapiens with 6 samples.

Results

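The long noncoding RNAs (lncRNAs) of highest level in the DLD-1 line, epithelial cells of a human colorectal adenocarcinoma, were described with and without TFA, the total flavones extracted from Abelmoschus manihot. Members were chosen by level, as the 150 rows of highest mean FPKM over the 6 libraries among the 7085 table rows whose type is lncRNA and nothing else, of 31016 genes in all, after 3 such rows were left out by name. FPKM counts fragments per transcript length and sequencing depth, so that levels of different genes can be compared. Of the libraries, 3 were made from cells given TGF-β together with TFA (TGFb_TFA 1 to 3) and 3 from cells given TGF-β alone (TGFb 1 to 3), so that TGF-β, an inducer of epithelial-mesenchymal transition, was present in both groups. Per the labels, the cells were treated for 24 hours in the libraries numbered 1, 25 hours in those numbered 2 and 26 hours in those numbered 3 of either group, and no dose is given. Time and replicate number cannot be told apart, and the labels do not say whether the replicates are separate cultures, so that p-values measure only the spread between these libraries.

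LncRNAs are transcripts without a long reading frame. Some act in the nucleus, where they hold together bodies such as paraspeckles or guide chromatin complexes, some bind proteins or microRNAs in the cytoplasm, and others are the spliced remains of genes whose introns yield small nucleolar RNAs (snoRNAs) or microRNAs. Many lie antisense to a coding gene or share a start region with one. Since the libraries were made from poly(A)-selected RNA, lncRNAs without a poly(A) tail are poorly represented.

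The libraries held 60361756 to 62304157 estimated counts with TFA and 62981239 to 68745953 without it. TGFb_TFA 3 stood apart from its own group: a chi-square test of counts over genes gave 239 and 232 per degree of freedom against TGFb_TFA 1 and 2, and 12.5 between those 2 libraries, while the TGFb libraries gave 40.6 to 89.2 among themselves. Where leaving out TGFb_TFA 3 turned the direction of a member's reported log2 fold change or moved it by over 1.5 times, the value without it is therefore given too. Of 10 colorectal epithelial markers, 9 were in the table and 7 reached a mean of 1 FPKM, with means from 0.0969 to 725 FPKM. Their summed level was 1322 to 1466 FPKM with TFA and 1416 to 1661 FPKM without it. Fibroblast markers summed to 0.440 to 2.35 FPKM with TFA and 0.0378 to 0.346 FPKM without it, endothelial markers to 0.553 to 0.815 FPKM with TFA and 0.442 to 0.687 FPKM without it, and blood markers to 0.346 to 0.697 FPKM with TFA and 0.360 to 0.487 FPKM without it. None of the 18 fibroblast, endothelial and blood markers in the table reached a mean of 1 FPKM.

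Levels declined steeply along the list. The mean ran down to 2.004 FPKM at rank 150 from 192 FPKM at rank 1, with a median of 3.57 FPKM. Only 4 members reached 100 FPKM, 9 reached 20, 16 reached 10, 49 reached 5 and 98 reached 3, and the other 6932 lncRNA rows had a median of 0.0409 FPKM. The limit fell where levels hardly differ: ARHGAP5-AS1 (2.02 FPKM), LINC01123 (2.02 FPKM) and DGUOK-AS1 (2.004 FPKM) were the last inside, and CU633967 (2.002 FPKM), RAB30-DT (2.001 FPKM) and LINC01559 (1.98 FPKM) the first outside. These means chose the list and are given as a description. Of the 150 members, 75 carry clone-based names, 27 end in AS for antisense, 12 are LINC genes, 10 are SNHG genes and 5 end in DT for divergent transcript. Another 164 rows name lncRNA beside a second type and could not enter, among them SNHG1 (66.7 FPKM), SNHG29 (66.4 FPKM), GAS5 (58.7 FPKM), SNHG6 (49.0 FPKM) and H19 (32.4 FPKM).

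The 4 rows at the head of the list lie opposite ribosomal RNA genes, 1 of these a pseudogene. They carry 2 names, FP236383 (ENSG00000281181 and ENSG00000280614) and FP671120 (ENSG00000280800 and ENSG00000281383), and all lie on the minus strand of chromosome 21, for example at chr21:8437629-8438551 (GRCh38), each 923 bases long. The RefSeq genes RNA18SN1, RNA18SN3 and RNA18SN2, copies of the gene for the RNA of the small ribosomal subunit, hold 3 spans whole on the plus strand. These 3 spans also lie within RNA45SN1, RNA45SN3 and RNA45SN2. RNA18SP5, whose symbol marks a pseudogene of the same RNA, holds the span of ENSG00000281383 whole on the plus strand. No RNA45S gene holds that span. In the GENCODE 29 transcripts the 3 highest rows are identical over 923 bases, and ENSG00000281383 differs from them at 106 positions when set side by side without gaps, an identity of 88.5%. Counts of near-identical copies can be split between them, so the 4 rows are best read as 1 sum. The first 80 bases are the same in all 4 and are printed to show the annotated transcript:
FP236383: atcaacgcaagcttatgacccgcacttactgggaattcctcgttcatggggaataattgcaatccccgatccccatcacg

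Summed over the 4 rows, the level was 977, 845 and 389 FPKM in TGFb_TFA 1 to 3, against 804, 471 and 406 FPKM in TGFb 1 to 3. The groups overlapped, TGFb_TFA 3 being the lowest of the 6 libraries in summed FPKM and TGFb 1 close to TGFb_TFA 2. In log2 CPM (counts scaled to library size times a TMM normalisation factor) the lowest was TGFb 3, with a median deviation from each row's mean of -0.61. TGFb_TFA 3 had -0.48 by that measure. The factor was 0.895 in TGFb_TFA 3 and 0.993 to 1.042 in the other libraries. ENSG00000281181, the highest row, had 291, 249 and 114 FPKM in TGFb_TFA 1 to 3, against 238, 140.1 and 120.3 FPKM in TGFb 1 to 3, a log2 fold change of 0.39 ± 0.34 (SE) with a 95% interval of -0.41 to 1.19. Without TGFb_TFA 3 it was 0.66. The median over the 4 rows was 0.40, and 0.66 without TGFb_TFA 3, and none passed the test. The sources used here do not give how the counting used strand, so that reads of the ribosomal RNA and of a transcript opposite to it cannot be told apart. Their weight in the list is large: the 150 members made up 0.350% to 0.571% of summed FPKM with TFA and 0.366% to 0.529% without it, but 0.239% to 0.257% with TFA and 0.239% to 0.269% without it once the 4 rows were taken out.

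**Figure D1:**
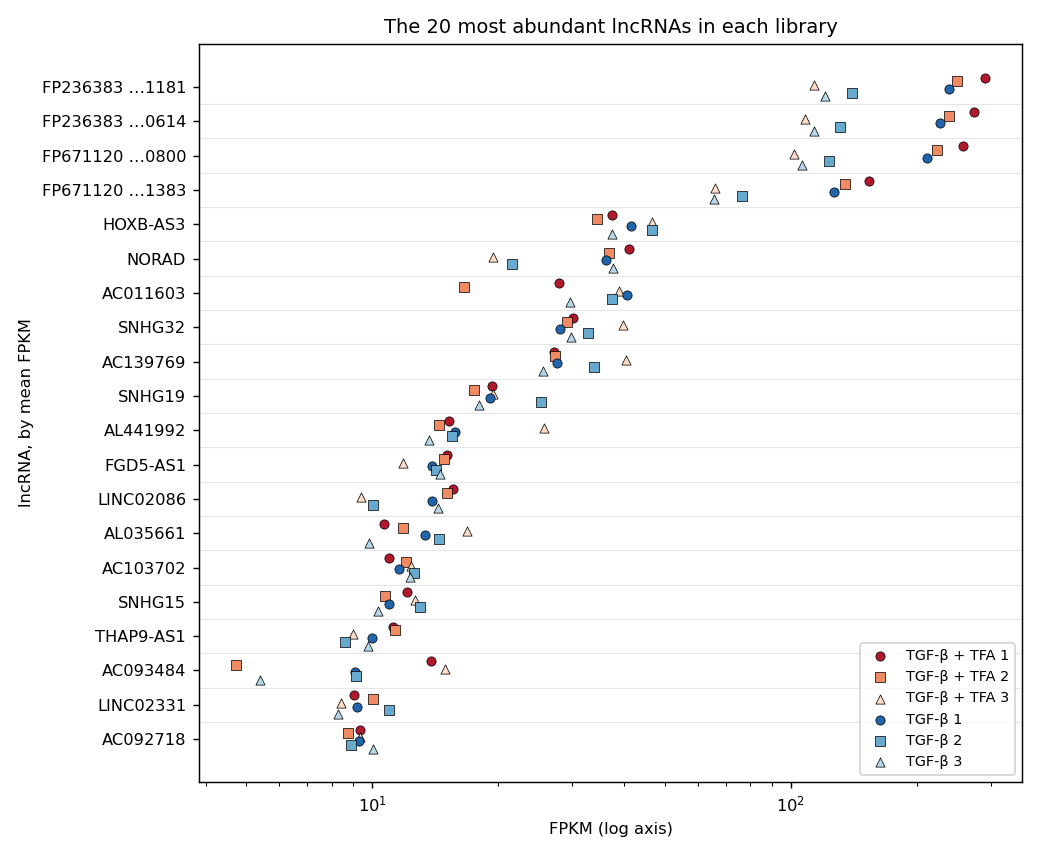
FPKM of the 20 members of highest mean level on a log axis, 1 row per lncRNA with its libraries as points, red for TGFb_TFA 1 to 3 and blue for TGFb 1 to 3; names carried by more than 1 member end in the last 4 digits of the gene identifier. The points of both groups overlap in all 20 rows, and the lowest point of AC093484 is TGFb_TFA 2 at 4.73 FPKM.

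Below them stood a group of better known RNAs. HOXB-AS3, a transcript of the HOXB cluster on chromosome 17 that has been reported to encode a small peptide, had 37.3, 34.5 and 46.6 FPKM in TGFb_TFA 1 to 3, against 41.5, 46.7 and 37.4 FPKM in TGFb 1 to 3. NORAD, a cytoplasmic RNA that is needed for stable chromosome number, had 41.0, 36.9 and 19.5 FPKM in TGFb_TFA 1 to 3, against 36.3, 21.6 and 37.6 FPKM in TGFb 1 to 3. Its lowest libraries, TGFb_TFA 3 and TGFb 2, came from different groups. SNHG32, a snoRNA host on chromosome 6, had 30.2, 29.1 and 39.7 FPKM in TGFb_TFA 1 to 3, against 28.2, 32.7 and 29.9 FPKM in TGFb 1 to 3, with TGFb_TFA 3 above the other 5. FGD5-AS1 had the smallest SE of all members, with 15.1, 14.8 and 11.9 FPKM in TGFb_TFA 1 to 3, against 13.9, 14.2 and 14.5 FPKM in TGFb 1 to 3 and a log2 fold change of -0.0049 ± 0.11 (SE), which was 0.029 without TGFb_TFA 3. The remaining members of the first 20 ranged from 9.28 FPKM for AC092718 (ENSG00000261061) to 31.8 FPKM for AC011603 (ENSG00000258017) in mean level, and in none of the 20 were the groups apart.

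None of the 150 lncRNAs passed the test for a difference with TFA. These are bulk libraries, in which fewer cells with an RNA and less of it per cell cannot be told apart. All 150 passed the filter on low counts, and edgeR's quasi-likelihood test called 0 of them at an adjusted p under 0.05, with 0.0109% of the 18265 genes tested called (2 genes) and adjusted p = 0.9997 for every member. DESeq2 called 0 members, where it called 0.0712% of 18253 genes. At an unadjusted p under 0.05, edgeR had 0 members higher with TFA and 2 lower, or 1.33% of the list beside 1.83% of all genes tested (1.07% higher and 0.761% lower). DESeq2 had 1 higher, AC012321, and 2 lower, IGFL2-AS1 and AC132192, at that level, where 2.33% of all its genes passed. Fitted log2 fold changes were above 0 in 85 members and below 0 in 65 (51.9% of all genes tested were above 0), with a median of 0.042 and quartiles of -0.12 and 0.16, beside a median of 0.011 and quartiles of -0.14 and 0.18 over all genes tested. Without TGFb_TFA 3 the split was 56 above 0 and 94 below, the median became -0.073 beside 0.015 over all genes tested, and 11 members had an unadjusted p under 0.05, 7 of them lower with TFA. That was 7.33% of the list beside 2.64% of all genes tested, with 0 called and a lowest adjusted p of 0.9992.

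The 2 genes that edgeR called over the whole table were no members and moved much further, and are named, with AHR and AC019117, after their values were seen. CYP1A1, a xenobiotic-metabolising enzyme induced through the aryl hydrocarbon receptor, had 23.99, 22.9 and 20.7 FPKM in TGFb_TFA 1 to 3, against 0.517, 0.394 and 0.589 FPKM in TGFb 1 to 3. STBD1, a starch-binding protein, had 9.75, 10.9 and 10.2 FPKM in TGFb_TFA 1 to 3, against 2.26, 1.83 and 2.77 FPKM in TGFb 1 to 3. Their log2 fold changes were 5.501 ± 0.18 and 2.203 ± 0.18 (SE), with edgeR adjusted p-values of 6.93e-05 and 0.0255. AHR itself, which encodes that receptor, had 26.7, 26.7 and 17.03 FPKM in TGFb_TFA 1 to 3, against 28.8, 24.2 and 26.99 FPKM in TGFb 1 to 3. Both members named AC019117, on opposite strands of chromosome 7 with AHR as their nearest coding gene at 59327 and 28715 bases, overlapped between the groups: ENSG00000236039 with 7.97, 8.25 and 7.66 FPKM in TGFb_TFA 1 to 3, against 10.7, 8.25 and 9.01 FPKM in TGFb 1 to 3 and ENSG00000236318 with 4.63, 4.69 and 5.95 FPKM in TGFb_TFA 1 to 3, against 5.59, 4.59 and 4.13 FPKM in TGFb 1 to 3. Their log2 fold changes of -0.20 ± 0.14 and 0.14 ± 0.21 (SE) did not pass the test and were -0.25 and -0.079 without TGFb_TFA 3.

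**Figure D2:**
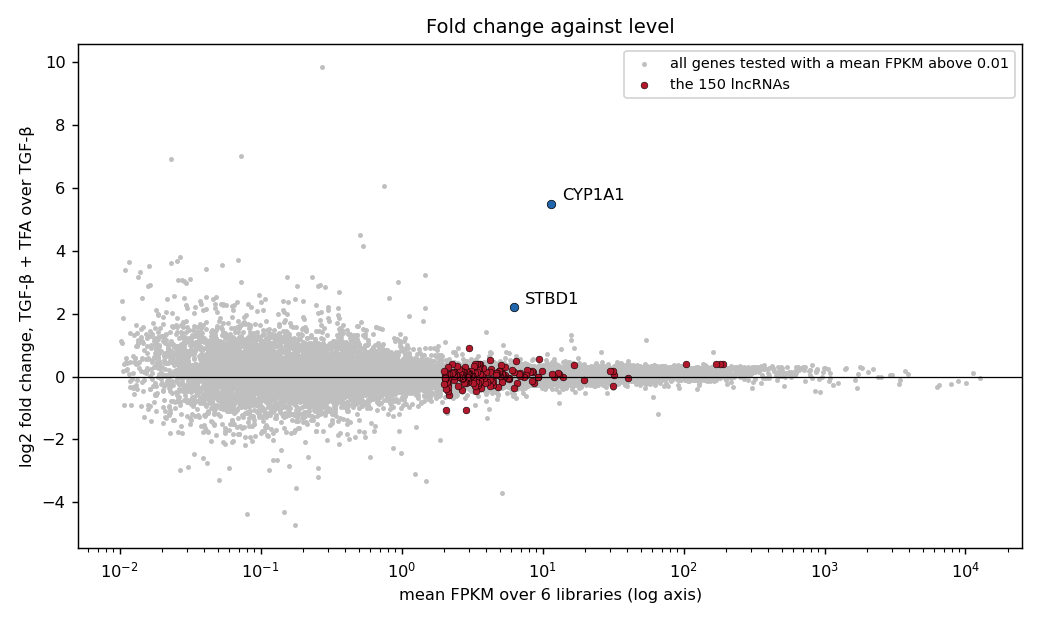
Fitted log2 fold change (TGFb_TFA over TGFb) against mean FPKM on a log axis, with the 150 lncRNAs in red, the other tested genes with a mean above 0.01 FPKM in grey, and the called genes CYP1A1 and STBD1 in blue. The red points lie between -1.07 and 0.90, at levels of 2.004 FPKM and more.

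The intervals show how large a change the data could have missed. The median SE of a member was 0.23 on the log2 scale, beside 0.25 over all genes tested, and 144 of 150 fitted values lay within 0.5 of 0. A 95% interval wholly between -1 and 1 was found for 123 members, or 82.0%, beside 63.9% of all genes tested. Members were chosen for a high level and the genes tested were not, so such shares are not matched for level. A 95% interval wholly within a 1.5-fold change either way was found for 48 members, where 35.0% of all genes tested had one. For the other members the interval reached past 1.5-fold in at least 1 direction. Among the most precisely measured, THAP9-AS1 had 11.2, 11.3 and 8.97 FPKM in TGFb_TFA 1 to 3, against 9.99, 8.62 and 9.79 FPKM in TGFb 1 to 3, with an interval of -0.10 to 0.45, and SNHG4 had one of -0.32 to 0.26. At the other end, 3 members had an SE above 1, namely MIR222HG, AC023509 and AC006064 (ENSG00000269968).

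The groups did not overlap in FPKM for 3 members that were higher with TFA, where 4.22% of all genes tested did so, and for 10 that were lower, where 3.73% did. Together these are 8.67% of the list beside 7.95% of all genes tested. Higher were AC083799, CRIM1-DT and PCCA-DT. PCCA-DT, divergent from the gene of a propionyl-CoA carboxylase subunit, had 5.03, 5.32 and 6.46 FPKM in TGFb_TFA 1 to 3, against 4.71, 4.86 and 3.93 FPKM in TGFb 1 to 3 and a log2 fold change of 0.36 ± 0.20 (SE), which was 0.16 without TGFb_TFA 3. CRIM1-DT, divergent from CRIM1, had 3.01, 3.39 and 2.91 FPKM in TGFb_TFA 1 to 3, against 2.39, 2.77 and 2.57 FPKM in TGFb 1 to 3. AC083799 (ENSG00000203644), inside TMCC1, had 3.97, 4.35 and 3.91 FPKM in TGFb_TFA 1 to 3, against 3.696, 3.54 and 3.102 FPKM in TGFb 1 to 3. These 3 and the 10 lower ones were found after their values were seen. Without TGFb_TFA 3 the counts were 19 members higher, where 14.3% of all genes tested were, and 22 lower, where 7.07% were. Together that was 27.3% of the list beside 21.4% of all genes tested.

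IGFL2-AS1 and AC132192 were the 2 members with an unadjusted p under 0.05. IGFL2-AS1, named for the IGFL2 gene and located at chr19:46189029-46203083, had 1.34, 1.77 and 2.03 FPKM in TGFb_TFA 1 to 3, against 2.69, 2.92 and 2.35 FPKM in TGFb 1 to 3. All 3 libraries with TFA were lower than all 3 without it, for a mean of 1.72 ± 0.346 FPKM with TFA and 2.65 ± 0.288 FPKM without it (SD, n = 3 each). The log2 fold change was -0.58 ± 0.23 (SE; edgeR unadjusted p = 0.0360, adjusted p = 0.9997), and -0.81 without TGFb_TFA 3. AC132192 (ENSG00000268403) lies head to head with ZNF143, a zinc finger transcription factor, their starts 383 bases apart. It had 2.87, 2.79 and 2.75 FPKM in TGFb_TFA 1 to 3, against 4.33, 3.99 and 3.5 FPKM in TGFb 1 to 3, a tight set of values with TFA below a wider set without it. Its log2 fold change was -0.46 ± 0.18 (SE; edgeR unadjusted p = 0.0368, adjusted p = 0.9997), while ZNF143 had 7.36, 8.08 and 4.37 FPKM in TGFb_TFA 1 to 3, against 7.84, 5.64 and 7.11 FPKM in TGFb 1 to 3, with overlapping groups.

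The other 8 non-overlapping members that were lower with TFA were AL354920, AC009005, UCA1, HOTAIRM1, AC097709, AC078923, VPS9D1-AS1 and LINC00920. AL354920 (ENSG00000254473), head to head with the ubiquilin gene UBQLN1, had 2.199, 1.86 and 2.62 FPKM in TGFb_TFA 1 to 3, against 3.64, 2.85 and 2.86 FPKM in TGFb 1 to 3, and UBQLN1 21.9, 23.5 and 15.1 FPKM in TGFb_TFA 1 to 3, against 22.03, 17.4 and 21.7 FPKM in TGFb 1 to 3. AC009005 (ENSG00000267751), with a start 951 bases from that of BSG, the gene of the surface glycoprotein basigin, had 1.95, 1.49 and 1.85 FPKM in TGFb_TFA 1 to 3, against 2.695, 2.28 and 2.21 FPKM in TGFb 1 to 3. BSG itself had 50.98, 49.3 and 40.7 FPKM in TGFb_TFA 1 to 3, against 44.98, 50.3 and 56.2 FPKM in TGFb 1 to 3, with overlapping groups. AC097709 had 1.83, 1.89 and 1.88 FPKM in TGFb_TFA 1 to 3, against 2.51, 2.73 and 1.98 FPKM in TGFb 1 to 3. The fitted log2 fold changes of the 8 ran between -0.43 for AL354920 and -0.16 for LINC00920 (-0.66 and -0.27 without TGFb_TFA 3), and none had an unadjusted p under 0.05.

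**Figure D3:**
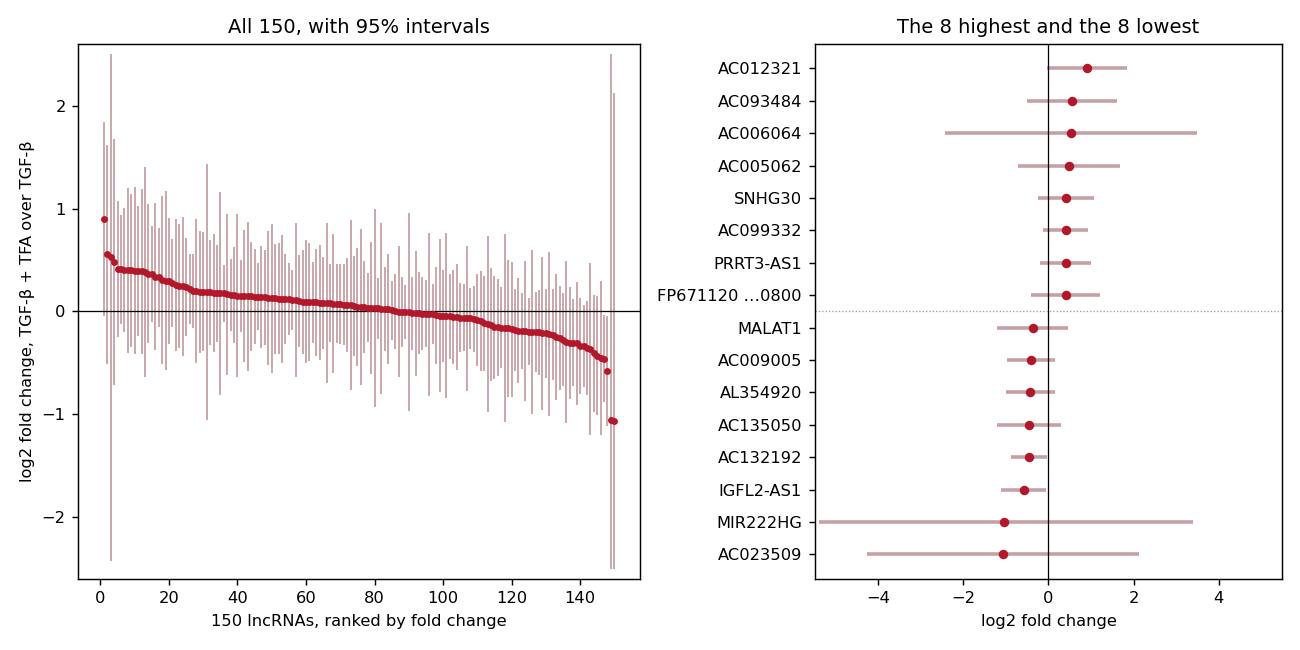
Left, fitted log2 fold change (TGFb_TFA over TGFb) of the 150 lncRNAs in order of value, with vertical lines for 95% intervals cut at the frame. Right, the 8 highest and the 8 lowest with their intervals, from AC012321 at 0.90 to AC023509 at -1.07; the intervals of IGFL2-AS1 and AC132192 lie below 0 before adjustment.

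Hosts of snoRNAs, whose introns are processed into guides of ribosomal RNA modification, formed the largest role group with 12 members. Some genes of this kind, like those of the ribosomal proteins, begin transcription at a C within a run of pyrimidines, a terminal oligopyrimidine (TOP) start that links translation to growth signals. The RefSeq windows around the start (GRCh38.p14) matched 51 members by symbol, 10 of them snoRNA hosts. A C at the first transcribed base followed by at least 4 more C or T, searched on the transcribed strand, was found in 4 of the 10, in 3 of the other 41 members, in 3 of 17 listed hosts outside the 150, in 28 of 52 ribosomal protein windows and in 4.07% of all 35116 windows. The 4 host starts are printed below from 15 bases before the start, with the pyrimidine run in capitals. Their RefSeq start was at most 1 base from the table's start in SNHG4, SNHG18 and SNHG19 and 308 bases from it in SNHG32, and no match in the other hosts says only that these letters are not at that annotated start.
SNHG4 (chr5:139274086-139274135, plus strand): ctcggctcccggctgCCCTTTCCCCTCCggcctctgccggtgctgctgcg
SNHG18 (chr5:9546185-9546234, plus strand): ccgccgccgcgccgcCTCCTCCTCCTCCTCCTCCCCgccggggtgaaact
SNHG19 (chr16:2155324-2155373, minus strand): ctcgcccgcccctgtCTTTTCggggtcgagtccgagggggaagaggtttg
SNHG32 (chr6:31834901-31834950, plus strand): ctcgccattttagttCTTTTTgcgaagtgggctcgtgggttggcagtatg

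None of the 12 hosts passed the test, and in none were the groups apart. Their fitted values were above 0 in 8 and below 0 in 4, with a median of 0.12 beside 0.042 for the whole list. SNHG19 had 19.3, 17.5 and 19.4 FPKM in TGFb_TFA 1 to 3, against 19.2, 25.3 and 17.99 FPKM in TGFb 1 to 3. SNHG15 had 12.1, 10.7 and 12.6 FPKM in TGFb_TFA 1 to 3, against 10.95, 12.98 and 10.3 FPKM in TGFb 1 to 3. In both, TGFb 2 was the highest library and the groups overlapped. SNHG8 had 7.13, 7.55 and 10.6 FPKM in TGFb_TFA 1 to 3, against 7.92, 8.65 and 7.18 FPKM in TGFb 1 to 3, with TGFb_TFA 3 the highest library. SNHG25, of 278 exon bases the shortest member, had 4.87, 5.37 and 7.34 FPKM in TGFb_TFA 1 to 3, against 4.73, 6.82 and 3.17 FPKM in TGFb 1 to 3. SNHG30 had the largest fitted value of the hosts, 0.41 ± 0.28 (SE), with 3.22, 3.09 and 5.25 FPKM in TGFb_TFA 1 to 3, against 2.77, 3.11 and 3.18 FPKM in TGFb 1 to 3: only TGFb_TFA 3 stood above the rest, and without it the value was 0.018. SNHG7, SNHG21, DANCR and EPB41L4A-AS1 had fitted values of 0.14, 0.25, 0.078 and -0.0196, and SNHG4 and SNHG18 of -0.027 and -0.069. Without TGFb_TFA 3 the first 4 had 0.043, 0.18, -0.099 and -0.15, and SNHG4 and SNHG18 -0.050 and -0.098.

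The host RNAs were highest in TGFb_TFA 3. Their median log2 CPM (scaled as above) was 0.28 above each gene's mean over the 6 libraries there, beside -0.15 to 0.057 in the other 5. The median over all 150 members was 0.16 in that library, and that of the 39 antisense overlaps described below was 0.40. In the other position classes it was -0.035 to 0.17. The 53 ribosomal protein genes had the same high library, at 0.67, beside -0.26 to 0.15 elsewhere. With all libraries 51 of the 53 ribosomal protein genes had fitted values above 0, with a median of 0.23 and 0 called. Without TGFb_TFA 3 all 53 were below 0, with a median of -0.14, and 8 of the 12 hosts were below 0, with a median of -0.062. The direction of both lists therefore turned on that library. The listed hosts outside the 150, 20 in all and tested in full, had a median of 0.089 and 0 called.

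Hosts of microRNAs were 3: MIRLET7BHG, MIR200CHG and MIR222HG. MicroRNAs pair with targets through the seed, bases 2 to 8, and the microRNAs of these hosts are printed (RefSeq, GRCh38.p14) because they show which seed families each host can yield, with the seed in capitals. The let-7 pair shares its seed, as do miR-221 and miR-222, whereas miR-200c and miR-141, which hold down the repressors of the epithelial state ZEB1 and ZEB2, differ in bases 1 to 8 by U4C, counted from the 5′ end with the base of miR-200c first.
let-7a-5p: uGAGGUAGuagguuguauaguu
let-7b-5p: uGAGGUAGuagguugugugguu
miR-200c-3p: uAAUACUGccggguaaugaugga
miR-141-3p: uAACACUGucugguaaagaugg
miR-221-3p: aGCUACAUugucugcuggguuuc
miR-222-3p: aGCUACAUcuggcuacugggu

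Both let-7 microRNAs lie inside MIRLET7BHG at chr22:46053869-46113928, whose groups overlapped closely: 5.05, 5.702 and 5.62 FPKM in TGFb_TFA 1 to 3, against 5.46, 5.77 and 5.14 FPKM in TGFb 1 to 3, with a log2 fold change of 0.037 ± 0.14 (SE), an interval of -0.29 to 0.37 and a value of -0.066 without TGFb_TFA 3. MIR200CHG, a transcript of 350 exon bases at chr12:6963246-6964447 on the plus strand, had 3.66, 3.28 and 4.31 FPKM in TGFb_TFA 1 to 3, against 3.75, 5.14 and 2.98 FPKM in TGFb 1 to 3. Its log2 fold change was -0.041 ± 0.32 (SE), with a wider interval of -0.78 to 0.70, and -0.24 without TGFb_TFA 3. Mature microRNAs were not measured by these poly(A) libraries, and the table's own microRNA rows held few counts: MIR200C had 3, 0 and 1 in TGFb_TFA 1 to 3, against 0, 2 and 0 in TGFb 1 to 3, and MIR141 had 0, 2 and 3 in TGFb_TFA 1 to 3, against 1, 5 and 7 in TGFb 1 to 3.

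MIR222HG was present in some libraries and nearly absent from others. It had 0.0453, 5.61 and 0.02097 FPKM in TGFb_TFA 1 to 3, against 6.15, 5.26 and 0 FPKM in TGFb 1 to 3, so that TGFb_TFA 2, TGFb 1 and TGFb 2 lay above 5 FPKM and the other 3 libraries below 0.1 FPKM. High and low libraries occurred in both groups. The fitted log2 fold change was -1.06 ± 1.91 (SE), with an interval of -5.497 to 3.39. It was -0.48 without TGFb_TFA 3, -6.75 without TGFb_TFA 2 and 0.0041 without TGFb 1 and TGFb_TFA 3 together. The row for MIR221 held 3, 7 and 4 counts in TGFb_TFA 1 to 3, against 10, 8 and 4 in TGFb 1 to 3.

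Of the nuclear and chromatin lncRNAs, 4 were members, and all 4 fitted values lay below 0 with none passing the test. NEAT1, the scaffold of paraspeckles, had 3.44, 3.32 and 2.05 FPKM in TGFb_TFA 1 to 3, against 3.75, 3.08 and 4.17 FPKM in TGFb 1 to 3. MALAT1, an abundant RNA of nuclear speckles that has been tied to metastasis, had 7.48, 6.47 and 2.45 FPKM in TGFb_TFA 1 to 3, against 8.54, 4.84 and 7.73 FPKM in TGFb 1 to 3. In both, TGFb_TFA 3 was the lowest library. Log2 fold changes were -0.31 ± 0.18 for NEAT1 and -0.37 ± 0.36 for MALAT1 (SE). Without TGFb_TFA 3 they were -0.16 and -0.054, so that the value for MALAT1 rested on that library. HOTTIP, which brings a histone methyltransferase complex to the HOXA genes, had 4.11, 3.95 and 3.11 FPKM in TGFb_TFA 1 to 3, against 4.75, 3.43 and 4.76 FPKM in TGFb 1 to 3. HOTAIRM1, a transcript of the HOXA cluster described in myeloid cells, had 3.66, 4.64 and 4.26 FPKM in TGFb_TFA 1 to 3, against 4.94, 5.48 and 5.85 FPKM in TGFb 1 to 3, with all 3 libraries with TFA below all 3 without it. Its log2 fold change of -0.34 ± 0.17 (SE) was -0.43 without TGFb_TFA 3. The median of the 4 was -0.32, and -0.15 without that library. The 13 tested genes of the same list outside the 150 had 9 fitted values above 0 and 4 below, with a median of 0.042 and 0 called. MALAT1 was the only member on the list of lncRNAs described in TGF-β signalling and epithelial-mesenchymal transition, a list that also held H19.

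**Figure D4:**
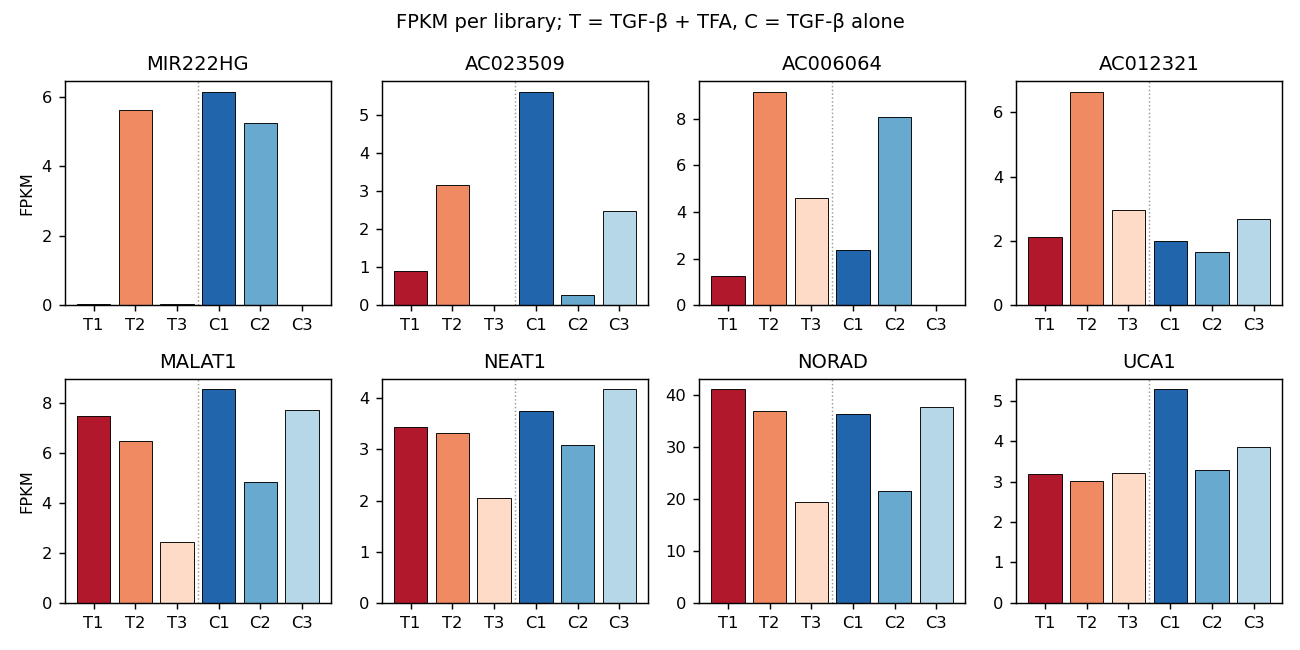
FPKM per library of 8 members, with bars from 0, red for TGF-β plus TFA (T1 to T3) and blue for TGF-β alone (C1 to C3). MIR222HG, AC023509 and AC006064 are at or near 0 in at least 1 library; MALAT1, NEAT1 and NORAD are lowest in T3; UCA1 is lower in all 3 T libraries than in all 3 C libraries.

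NORAD and NEAT1 were the 2 members on the list of p53 and DNA damage lncRNAs. The fitted log2 fold change of NORAD was 0.037 ± 0.28 (SE), with an interval of -0.60 to 0.68. It was 0.25 without TGFb_TFA 3.

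Members on the list of cancer lncRNAs numbered 10, of which 7 had fitted values below 0 and 3 above, with a median of -0.19 and 0 called. Without TGFb_TFA 3 the split was also 7 below and 3 above, with a median of -0.065, but not with the same members. AFAP1-AS1 turned from -0.20 to 0.087 and SNHG15 from 0.090 to -0.045. UCA1, first described in urothelial carcinoma, had 3.19, 3.03 and 3.204 FPKM in TGFb_TFA 1 to 3, against 5.28, 3.28 and 3.86 FPKM in TGFb 1 to 3. Its groups were apart, by a narrow gap between TGFb 2 and TGFb_TFA 3, and its log2 fold change was -0.36 ± 0.20 (SE). CRNDE, named for its raised level in colorectal neoplasia, had 3.31, 3.28 and 2.64 FPKM in TGFb_TFA 1 to 3, against 3.27, 2.75 and 3.32 FPKM in TGFb 1 to 3, with a log2 fold change of 0.0094 ± 0.12 (SE) that was 0.039 without TGFb_TFA 3. ELFN1-AS1, another lncRNA described in colorectal tumours, had 2.05, 2.35 and 1.46 FPKM in TGFb_TFA 1 to 3, against 2.24, 2.12 and 2.39 FPKM in TGFb 1 to 3. The groups of both overlapped, with TGFb_TFA 3 lowest. AFAP1-AS1, antisense to the actin-filament gene AFAP1, had 8.38, 7.07 and 3.06 FPKM in TGFb_TFA 1 to 3, against 6.99, 4.81 and 9.42 FPKM in TGFb 1 to 3: TGFb_TFA 3 and TGFb 2 were lowest, and the log2 fold change of -0.20 ± 0.34 (SE) was 0.087 without TGFb_TFA 3. LINC00460 had 3.47, 3.16 and 5.41 FPKM in TGFb_TFA 1 to 3, against 3.12, 3.53 and 2.89 FPKM in TGFb 1 to 3, a log2 fold change of 0.39 ± 0.27 (SE) that was 0.013 without TGFb_TFA 3. HEIH, described in hepatocellular carcinoma, had 6.21, 5.43 and 5.13 FPKM in TGFb_TFA 1 to 3, against 6.56, 5.82 and 5.47 FPKM in TGFb 1 to 3. The group also held HOTTIP, MALAT1, NEAT1 and SNHG15, given above.

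The HOX clusters, whose genes set position along the body axis, contributed 6 members, a group put together after the values were seen. In the HOXB cluster lay HOXB-AS3, HOXB-AS4, LINC02086 and AC103702 (ENSG00000272763), and in the HOXA cluster HOTAIRM1 and HOTTIP. LINC02086 had 15.6, 15.1 and 9.39 FPKM in TGFb_TFA 1 to 3, against 13.9, 10.1 and 14.3 FPKM in TGFb 1 to 3. AC103702, which shares 32 exon bases with it on the opposite strand, had 10.95, 12.1 and 12.4 FPKM in TGFb_TFA 1 to 3, against 11.6, 12.6 and 12.3 FPKM in TGFb 1 to 3, with little spread in either group. HOXB-AS4 had 4.04, 2.76 and 2.72 FPKM in TGFb_TFA 1 to 3, against 3.71, 2.92 and 2.77 FPKM in TGFb 1 to 3. Fitted values were above 0 in 2 and below 0 in 4, with a median of -0.021 (-0.13 without TGFb_TFA 3), and the 6 summed to 75.7, 73.0 and 78.4 FPKM in TGFb_TFA 1 to 3, against 80.4, 81.2 and 77.3 FPKM in TGFb 1 to 3. HOXB6, opposite HOXB-AS3 and sharing 425 of its exon bases, had 18.7, 21.5 and 18.9 FPKM in TGFb_TFA 1 to 3, against 19.9, 18.9 and 17.6 FPKM in TGFb 1 to 3, less than HOXB-AS3 in each library.

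Of the 150 members, 65 overlapped a coding gene on the other strand and 22 one on the same strand. Placed in 1 class each, with head-to-head starts taken first, 35 started within 1000 bases of a coding gene's start on the opposite strand. Such a head-to-head pair could run apart or overlap. Another 39 were antisense overlaps, 19 were same-strand overlaps and 57 were none of these. Exon bases were shared with a gene on the opposite strand by 69 members and with one on the same strand by 35. Of the 39 antisense members, 22 were above their coding neighbour in mean level, with a median of 182% of it, and 10 were under 10% of it. The members described next lie opposite genes of far higher level. AC011603 (ENSG00000258017) shares 1309 of 1632 exon bases with TUBA1B, an alpha-tubulin gene. It had 27.9, 16.5 and 38.9 FPKM in TGFb_TFA 1 to 3, against 40.5, 37.3 and 29.6 FPKM in TGFb 1 to 3. Its mean level was 5.41% of that of TUBA1B, which had 574, 598 and 592 FPKM in TGFb_TFA 1 to 3, against 562, 628 and 571 FPKM in TGFb 1 to 3. All 461 exon bases of AC093484 (ENSG00000265401) lie opposite UBB, a polyubiquitin gene. AC093484 had 13.8, 4.73 and 14.9 FPKM in TGFb_TFA 1 to 3, against 9.11, 9.16 and 5.4 FPKM in TGFb 1 to 3, and the second highest fitted value of the list, 0.56 ± 0.46 (SE), which was 0.19 without TGFb_TFA 3. Its mean level was 1.55% of that of UBB, and TGFb_TFA 2 was the lowest library. UBB had 522, 559.8 and 750.4 FPKM in TGFb_TFA 1 to 3, against 602, 693 and 559.8 FPKM in TGFb 1 to 3.

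All 422 exon bases of AC006064 (ENSG00000269968) lie opposite GAPDH, the glycolytic enzyme. AC006064 had 1.26, 9.16 and 4.596 FPKM in TGFb_TFA 1 to 3, against 2.38, 8.08 and 0 FPKM in TGFb 1 to 3, being listed at 0 in TGFb 3. Its mean level was 0.177% of that of GAPDH. GAPDH had 2115, 2152 and 2820.0 FPKM in TGFb_TFA 1 to 3, against 2183, 2889 and 2270.0 FPKM in TGFb 1 to 3. AP003352, AC010761 and MIF-AS1 are named too, after their values were seen. AP003352, opposite RPL30, had 1.22% of the mean level of that ribosomal protein gene, AC010761, opposite RPL23A, had 0.474%, and MIF-AS1, opposite the cytokine gene MIF, had 3.13%. With the use of strand in counting unstated, reads of these members and of the genes opposite them cannot be told apart. None of the 38 antisense members with a tested neighbour had a neighbour that was called, and member and neighbour had fitted values of the same sign in 19 of 38.

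Same-strand overlaps held the extremes of the fold changes. AC012321 (ENSG00000260772), with the highest fitted value, is a single block of 1588 bases that all belong to exons of NFAT5, a transcription factor of osmotic stress, so that its reads and those of NFAT5 cannot be told apart. It had 2.13, 6.65 and 2.95 FPKM in TGFb_TFA 1 to 3, against 2.01, 1.66 and 2.69 FPKM in TGFb 1 to 3. TGFb_TFA 2 stood far above the rest, the other 2 with TFA lying close to the range without it. NFAT5 had 3.16, 2.89 and 1.05 FPKM in TGFb_TFA 1 to 3, against 3.43, 1.39 and 3.25 FPKM in TGFb 1 to 3, lowest in TGFb_TFA 3, and a log2 fold change of -0.19 ± 0.42 (SE), while that of AC012321 was 0.90 ± 0.40 (SE), and 0.35 without TGFb_TFA 2. AC023509 (ENSG00000257379), with the lowest, shares 1097 of 1571 exon bases with PCBP2, an RNA-binding protein gene. It had 0.889, 3.17 and 0 FPKM in TGFb_TFA 1 to 3, against 5.61, 0.269 and 2.47 FPKM in TGFb 1 to 3, listed at 0 in TGFb_TFA 3, and a log2 fold change of -1.07 ± 1.37 (SE), which was -0.49 without TGFb_TFA 3, -2.68 without TGFb_TFA 2, -0.028 without TGFb 1 and 0.54 without TGFb 1 and TGFb_TFA 3 together. PCBP2 had 31.8, 29.5 and 21.01 FPKM in TGFb_TFA 1 to 3, against 26.7, 26.8 and 34.4 FPKM in TGFb 1 to 3. Member and neighbour had fitted values of the same sign in 8 of 18 same-strand pairs.

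Further members among the 8 highest and the 8 lowest fitted values were AC099332, PRRT3-AS1 and AC135050, none of which passed the test. AC099332 (ENSG00000286996), whose nearest coding gene is RPSA, of a ribosomal protein, at 8102 bases, had 3.58, 4.83 and 2.83 FPKM in TGFb_TFA 1 to 3, against 3.35, 2.32 and 2.92 FPKM in TGFb 1 to 3 and a log2 fold change of 0.41 ± 0.23 (SE). PRRT3-AS1 had 3.13, 4.28 and 4.57 FPKM in TGFb_TFA 1 to 3, against 3.56, 2.86 and 2.91 FPKM in TGFb 1 to 3 and a log2 fold change of 0.40 ± 0.26 (SE), which was 0.21 without TGFb_TFA 3. PRRT3, which it overlaps on the other strand, had 0.463, 0.206 and 0.296 FPKM in TGFb_TFA 1 to 3, against 0.311, 0.265 and 0.303 FPKM in TGFb 1 to 3, less than PRRT3-AS1 in every library. AC135050 (ENSG00000278133) had 2.04, 1.53 and 1.78 FPKM in TGFb_TFA 1 to 3, against 3.34, 1.59 and 2.61 FPKM in TGFb 1 to 3, with a log2 fold change of -0.45 ± 0.32 (SE). KAT8, a histone acetyltransferase gene that it overlaps on the same strand, had 4.54, 4.21 and 4.198 FPKM in TGFb_TFA 1 to 3, against 4.19, 4.97 and 4.28 FPKM in TGFb 1 to 3, with overlapping groups.

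Among the 35 head-to-head pairs, 15 had fitted values of the same sign, and the member was the more abundant of the pair in 14. The mean level of FGD5-AS1 was 824% of that of NR2C2, whose start lies 840 bases away: NR2C2, a nuclear receptor gene, had 2.01, 2.16 and 0.982 FPKM in TGFb_TFA 1 to 3, against 1.897, 1.24 and 1.94 FPKM in TGFb 1 to 3. THAP9-AS1 and THAP9, a gene derived from a transposase, start 276 bases apart, and THAP9 had 2.07, 1.99 and 1.22 FPKM in TGFb_TFA 1 to 3, against 1.76, 1.59 and 1.72 FPKM in TGFb 1 to 3, a lower level in every library than that of its partner. AL441992 (ENSG00000223478) had 15.3, 14.4 and 25.7 FPKM in TGFb_TFA 1 to 3, against 15.7, 15.5 and 13.7 FPKM in TGFb 1 to 3, with TGFb_TFA 3 far above the rest, while ZDHHC12, a palmitoyltransferase gene 318 bases away, had 5.75, 5.85 and 6.65 FPKM in TGFb_TFA 1 to 3, against 4.88, 6.02 and 5.78 FPKM in TGFb 1 to 3. SNHG19 and TRAF7 start 340 bases apart, with TRAF7 at 6.56, 6.61 and 4.85 FPKM in TGFb_TFA 1 to 3, against 5.83, 5.89 and 7.01 FPKM in TGFb 1 to 3. Spearman's rho of the fold changes over the pairs was 0.090 (n = 35) for head-to-head pairs, -0.017 (n = 38) for antisense pairs and -0.30 (n = 18) for same-strand pairs, as a description, since both values of a pair come from the same libraries.

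Deviations differed with transcript length from library to library. Of the members, 144 are in GENCODE 29, with 278 to 22767 exon bases. In TGFb_TFA 3 the 48 shortest members, of at most 923 bases, had a median log2 CPM 0.28 above each gene's mean and the 48 longest 0.027. TGFb 3 showed the reverse order, at -0.18 for the 48 shortest and -0.010 for the 48 longest. Spearman's rho between exon bases and the deviation was 0.13, 0.17 and -0.29 in TGFb_TFA 1 to 3, against 0.017, -0.23 and 0.32 in TGFb 1 to 3 (n = 144 members that share each library, as a description). With length taken as count over FPKM, it was 0.036, 0.11 and -0.20 in TGFb_TFA 1 to 3 over the 150 members. In TGFb 1 to 3 it was -0.014, -0.15 and 0.27. Over all 18265 genes tested that measure gave 0.283, 0.236 and -0.349 in TGFb_TFA 1 to 3. For TGFb 1 to 3 the values over all genes were 0.0922, -0.235 and 0.224. By that measure the sign over all genes was that of the members in each library but TGFb 1. The fitted log2 fold change had a median of 0.087 in the 48 shortest and 0.019 in the 48 longest. TGFb_TFA 3 was both the highest library for 38 members and the lowest for 38, while TGFb 3 was the lowest for 35.

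**Figure D5:**
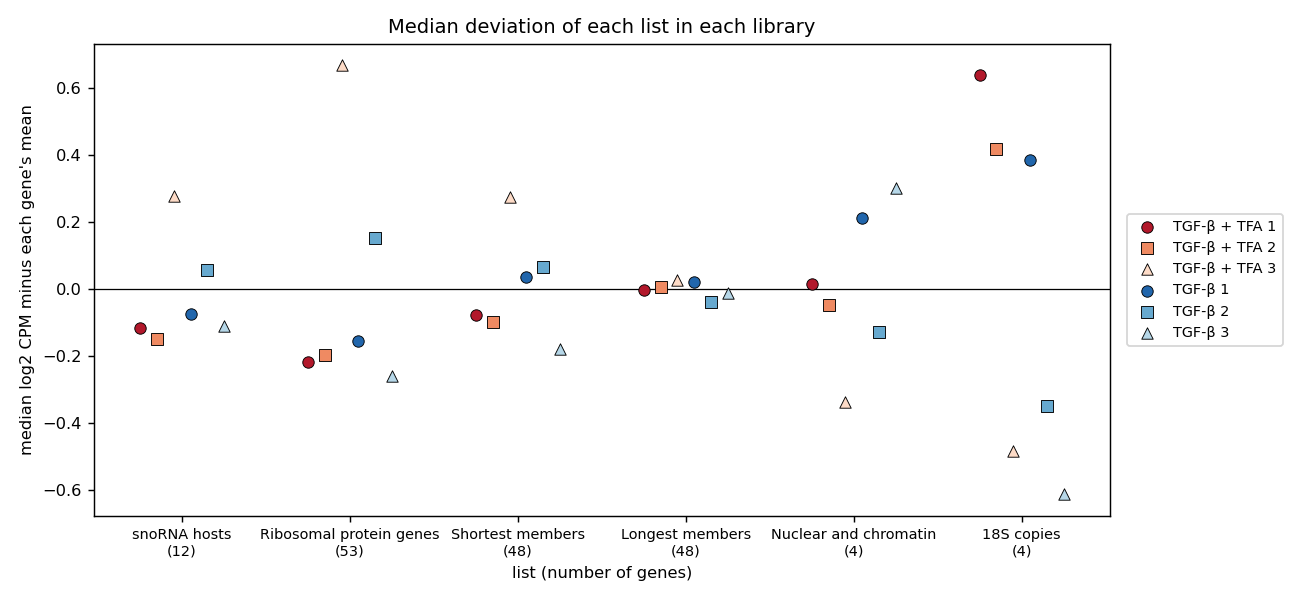
Median over each list of a gene's log2 CPM minus its mean over the 6 libraries, 1 point per library, red for TGFb_TFA 1 to 3 and blue for TGFb 1 to 3. The snoRNA hosts and the ribosomal protein genes are highest in TGFb_TFA 3 (0.28 and 0.67), and the nuclear and chromatin lncRNAs are lowest there (-0.34). The 4 rows opposite 18S genes or the 18S pseudogene, labelled 18S copies, are lowest in TGFb 3 (-0.61).

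Spread within a group differed widely between members. The within-group coefficient of variation of FPKM had a median of 17.2% over the members, beside 14.4% over the 8531 genes at or above the level of the last member, and ran from 5.14% to 115%. It was under 10% in 28 members and over 50% in 5, namely MIR222HG, AC023509, AC006064, AC012321 and PITPNA-AS1. The highest library was 1.62 times the lowest in the median member. AC005062 (ENSG00000243004) illustrates a wide spread without a zero, with 9.91, 6.104 and 6.602 FPKM in TGFb_TFA 1 to 3, against 1.99, 9.901 and 4.49 FPKM in TGFb 1 to 3 and a fitted log2 fold change of 0.48 ± 0.51 (SE), while AC092718 varied little, with 9.35, 8.75 and 9.36 FPKM in TGFb_TFA 1 to 3, against 9.31, 8.88 and 10.02 FPKM in TGFb 1 to 3. In 3 members at least 1 library was listed at 0.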

How the data were processed

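Poly(A) RNA of 6 DLD-1 libraries was sequenced as paired reads of a strand-labelled, UMI-tagged preparation, per the labels' protocols. Per the submitters' processing notes, tools were StringTie 1.3.4d, HISAT2 2.0.4 and cutadapt 1.9 with build GRCh38. How strand and UMIs entered the counting: not given in the sources used here. A single deposited table held the authors' FPKM and estimated counts per gene. Members and lists were chosen with earlier results of these data known.

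The estimated counts, whole numbers as deposited, were tested with edgeR 4.0.16 (R 4.3.3; TMM, filterByExpr, quasi-likelihood, Benjamini-Hochberg adjustment over 18265 genes, adjusted p under 0.05), with limma 3.58.1 on log2(FPKM + 0.5) and DESeq2 1.42.0 as alternatives; the code was tested on simulated data. Named are the 20 highest members, the 8 highest and 8 lowest fitted values, role-list members, the 3 rows on each side of the limit and overlapping or head-to-head coding neighbours; exceptions are stated. Positions, overlaps and distances use the deposited gene coordinates. Exons and shared exon bases are GENCODE 29 (144 of 150 identifiers, 105 with equal coordinates), microRNAs and start windows RefSeq. No pair of libraries within a group matched within sampling noise. All intervals cover the spread between libraries only.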

Additional observations from a re-analysis of the deposited data

How the results depend on the processing

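No member was called under any of the 17 alternative fits, with adjusted p-values of 0.3738 or more. Members at an unadjusted p under 0.05, 2 in the reported fit, numbered 5 with limma-trend on log2(FPKM + 0.5), log2(FPKM + 0.1) or log2(FPKM + 1) and with length offsets, 0 among the 49 members with a mean FPKM of at least 5, 9 with TGFb 1 and TGFb_TFA 3 left out, and 0 to 11 with 1 library left out (11 without TGFb_TFA 3, 0 without TGFb 1, 1 without TGFb_TFA 1). They numbered 1 among the 100 and 7 among the 300 lncRNAs of highest mean. The median member fold change of 0.042 became -0.073 without TGFb_TFA 3 (-0.073 to 0.057 over single libraries) and -0.082 with TGFb 1 and TGFb_TFA 3 left out; the cause was not tested. Genes called over the whole table, 2 in the reported fit, were 13 with DESeq2 and 1 to 3 with 1 library left out (1 without TGFb_TFA 1, TGFb_TFA 2 or TGFb 2).

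Libraries with the same replicate number did not deviate together (correlations of 0.040, -0.12 and -0.13), so the numbers were not taken to pair them; the replicate block gave 0 members at an unadjusted p under 0.05 and 1 gene called. Of the 150 members, 57 kept the sign of their fold change in every fit, 29 above 0 and 28 below, and 2351 of 2449 alternative values lay within 1 SE of the reported one. The role-list medians and the non-overlap counts without TGFb_TFA 3 were chosen after seeing the data. With 3 libraries a group, a change of more than 1.5-fold lay outside the interval in 48 members only.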
